A study of Mus musculus with 8 samples.

Results

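The genes described here are the mouse axon guidance ligands and receptors measured in Tfap2c-deficient and control embryonic stem cells (ESCs) and primordial germ cell-like cells (PGCLCs). They were chosen by gene symbol: the Eph receptors and ephrins, the semaphorins, plexins and neuropilins, the Slits and Robos, and netrin 1, netrin 4, Dcc and the Unc5 receptors, on probe sets that name 1 gene. The rule found 69 of the 18193 genes measured this way, on 154 of 34945 probe sets. Of these, 66 encode a guidance ligand or receptor, and Unc50, Unc5cl and Plxna4os1 matched by name only. Each gene was read on its representative probe set, the one whose mean over the 8 arrays was highest. Ephb2 had no such probe set here and is not analysed.

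RNA was hybridised to 8 Affymetrix whole-genome mouse arrays, 2 each for Tfap2c-/- PGCLCs, ctrl PGCLCs, Tfap2c-/- ESCs and ctrl ESCs. All cells carried the Blimp1mVenus reporter. Tfap2c-/- ESCs came from Blimp1mVenus/Tfap2c flox/flox lines after transient transfection of a pgk-Cre plasmid, and the parental flox/flox lines served as ctrl. PGCLCs were induced through epiblast-like cells with BMP4, BMP8b, SCF, LIF and EGF and were sorted for the reporter, so that only reporter-positive cells of each genotype were compared. For the arrays the study names 2 ESC lines, each as ctrl and as its Tfap2c-/- derivative, in ESCs and PGCLCs. The labels name the samples of a group biological replicates but do not tie the sample numbers to these lines. The p-values measure the spread between such samples, in which line and replicate cannot be told apart. Values are the deposited log2 intensities, so a difference of 1 is a doubling. With 2 arrays a group the precision is low, and a bulk measurement cannot tell fewer cells that transcribe a gene from less RNA per cell.

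Axon guidance molecules steer growing axons and migrating cells. Ephrins are membrane-bound ligands of the Eph receptor tyrosine kinases. The A-type ephrins are held by a lipid anchor and the B-type ephrins span the membrane. Semaphorins signal through plexins, and most of the secreted semaphorins also need neuropilins. Slits are secreted ligands of the Robo receptors and repel axons at the midline, whereas netrins attract through Dcc and repel through Unc5 receptors. The same molecules act outside the nervous system in cell sorting, blood vessel growth and cell migration.

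The array labels were first set against marker genes. Tfap2c itself read 8.52 and 8.85 in Tfap2c-/- PGCLCs, against 9.84 and 10.29 in ctrl PGCLCs, and 7.28 and 6.47 in Tfap2c-/- ESCs, against 7.88 and 9.14 in ctrl ESCs. Neither difference passed the test (limma, adjusted p = 0.15 and 1), and whether its probe set lies in the deleted part was not known here. The mean of 8 pluripotency genes lay between 9.89 and 10.31 on all arrays. Of the 8, Tdgf1, which encodes a Nodal co-receptor, was the 1 gene called between the PGCLC genotypes, with 11.03 and 11.11 in Tfap2c-/- PGCLCs, against 9.49 and 9.93 in ctrl PGCLCs (1.36, adjusted p = 0.00598 by limma), and its part in the members' differences was not tested. The mean of 7 germ cell genes was 7.23 and 7.30 in Tfap2c-/- PGCLCs, against 8.72 and 8.99 in ctrl PGCLCs, and between 6.38 and 7.53 in ESCs. The 7 included Tfap2c itself (-1.38 between the PGCLC genotypes) and Prdm1 (Blimp1, -0.89), the gene of the sorting reporter. Dppa3 differed most (-4.28), and the remaining ones by -1.91 to -0.59. On the ctrl PGCLC sample 2 the poly-A spike controls averaged 7.25, against 5.05 to 6.81 elsewhere, and the Gapdh 3′ to 5′ difference was 0.95, against 0.31 to 0.52.

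Of the 69 members, 38 read above the array's median on all 8 arrays, 17 on none and 14 on some. All 3 ephrin-B ligands and both neuropilins stayed above the median on every array, as did 11 of 20 semaphorins, 5 of 9 plexins and 3 of 5 ephrin-A ligands. The members never above it included the neuronal Eph receptors Epha3, Epha5, Epha6 and Epha8, the receptors Ephb1 and Ephb6, Robo2, Robo3, Unc5d and Ntn4. Such dim readings are not a test of absence, and they leave little room for a fall to show. Of the members never above the median, Sema5a and Sema3d still ranged over 1.54 and 1.34 across the 8 arrays.

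**Figure D1:**
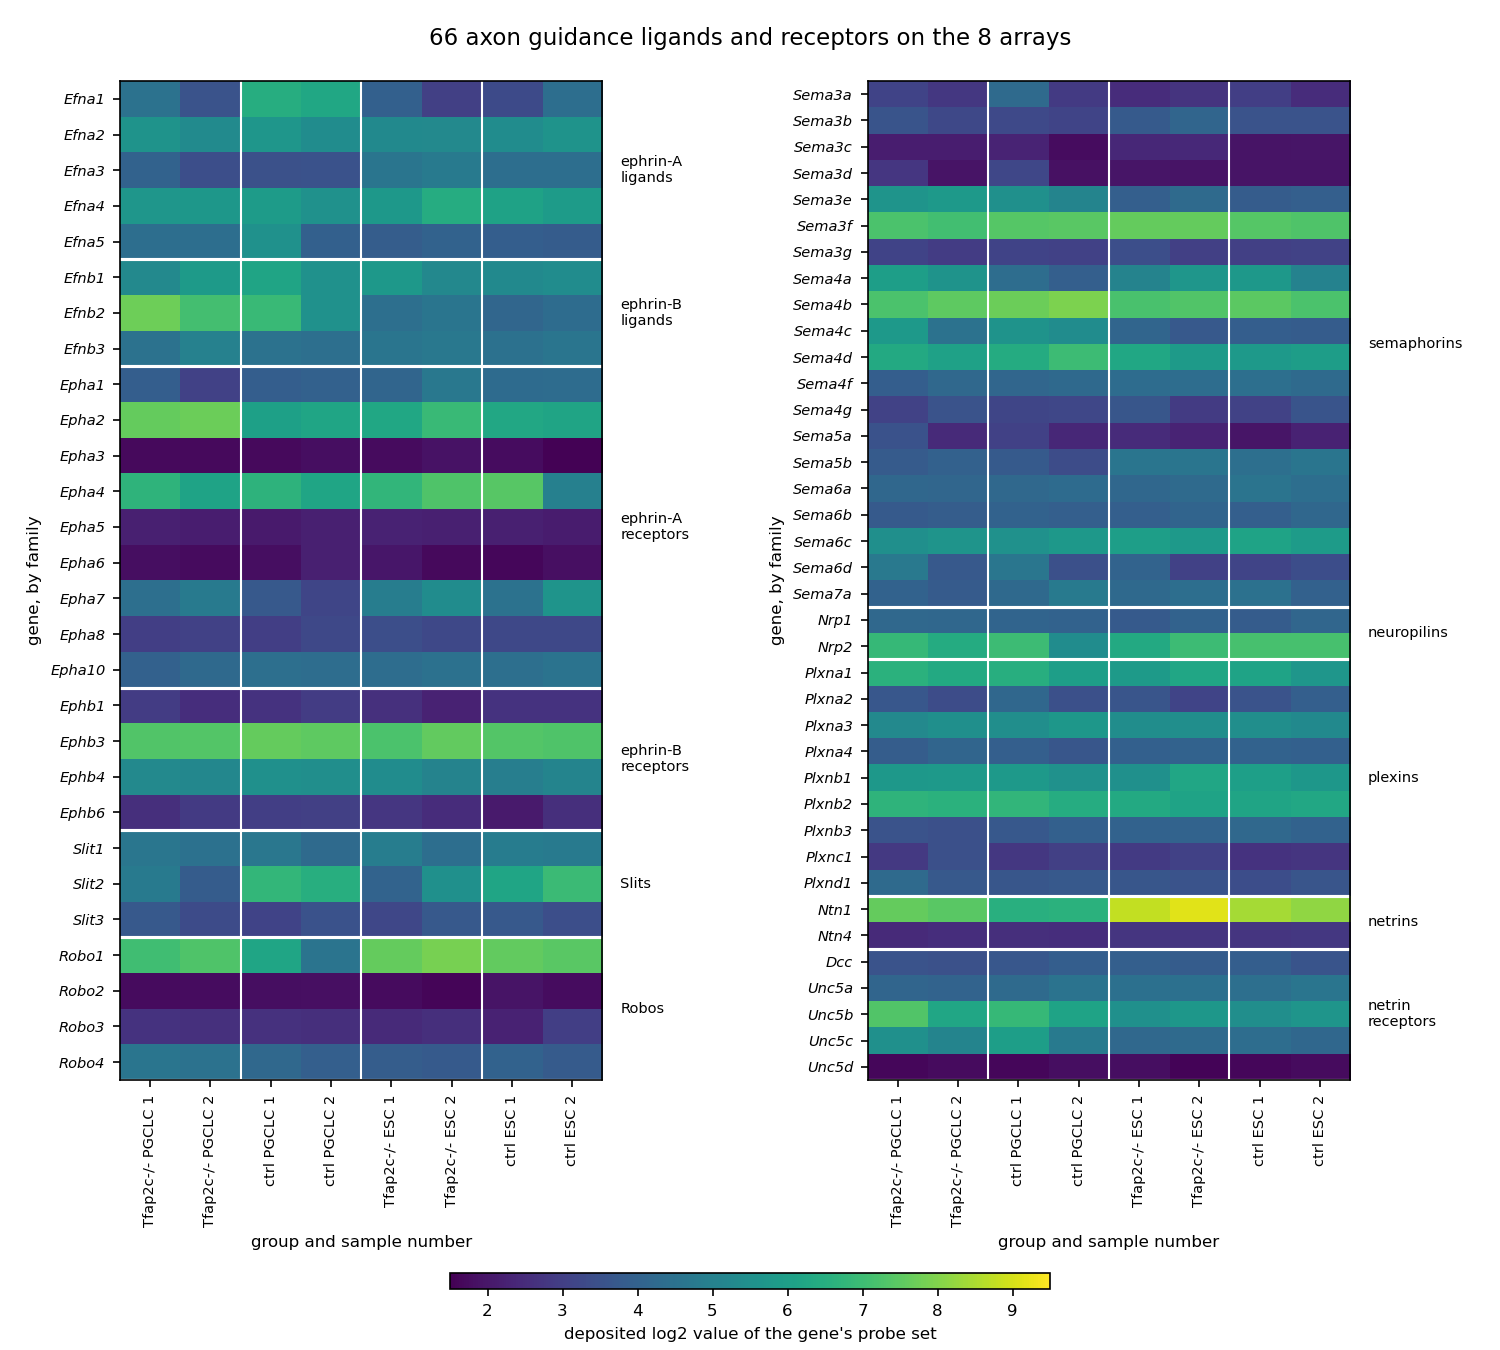
Deposited log2 value of the probe set of 66 guidance genes, 1 row per gene grouped by family, on the 8 arrays (columns, by group and sample number), with the colour scale below. Most rows keep 1 colour across the 8 columns. Efna1, Efnb2, Slit2, Robo1 and Ntn1 are among the rows whose colour differs between groups.

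The first question was which of these genes differed between Tfap2c-/- and ctrl PGCLCs. In this comparison 3 members rose and 1 fell at an adjusted p under 0.05 (limma with Benjamini-Hochberg adjustment over all 18193 genes). The receptor Epha2, the secreted ligand Ntn1 and the membrane semaphorin Sema4a rose, and the ligand Efna1 fell. Over all genes 1.29% rose and 1.8% fell, so the members' 3 and 1 of 69 are small numbers on either side. The members' median difference was -0.06 and that of all genes -0.04. A further 7 members, among them Slit2 and Robo1, had an unadjusted p under 0.05 without passing the adjustment, which makes 11 of 69, against 15.7% of all genes. Of the 69 members, 58 differed by less than 0.5 either way.

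Ephrin-A1, encoded by Efna1, is a ligand of the receptor encoded by Epha2. Efna1 read 4.50 and 3.55 in Tfap2c-/- PGCLCs, against 6.48 and 6.27 in ctrl PGCLCs. The groups did not overlap, and the difference was -2.35 ± 0.47 (SE; 5.1-fold lower; adjusted p = 0.042 by limma). A second Efna1 probe set read 3.61 and 2.70 in Tfap2c-/- PGCLCs, against 4.45 and 4.58 in ctrl PGCLCs, a difference of -1.36. With all probe sets fitted, neither Efna1 probe set passed (adjusted p = 0.0526 and 0.0628 by limma). The Efna1 call was also lost with no trend in the variance prior and with only the arrays compared. On each probe set 1 of the 2 knockout PGCLC samples lay inside the ESC range, which was 3.0 to 4.39 on the first and 2.64 to 2.94 on the second, and the other lay above it.

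Epha2 read 7.62 and 7.70 in Tfap2c-/- PGCLCs, against 6.05 and 6.20 in ctrl PGCLCs. The samples of a group lay within 0.15 of each other, and the difference was 1.53 ± 0.22 (SE; 2.89-fold higher; adjusted p = 0.0152 by limma), the smallest adjusted p among the members. Epha2 has a single probe set, of a kind (suffix _a_at) shared by transcripts of a gene. The other 8 ephrin-A receptors differed by -0.46 to 1.14. The highest of these was Epha7, with 4.43 and 4.75 in Tfap2c-/- PGCLCs, against 3.73 and 3.17 in ctrl PGCLCs, which did not pass (1.14 ± 0.39, adjusted p = 0.195 by limma).

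Among the semaphorins, Sema4a, a transmembrane family member known from immune and retinal cells, was the single gene called of 20. It read 5.99 and 5.60 in Tfap2c-/- PGCLCs, against 4.36 and 3.93 in ctrl PGCLCs, a difference of 1.65 ± 0.32 (SE; 3.13-fold higher; adjusted p = 0.04 by limma). In ESCs Sema4a read 5.09 and 5.69 (Tfap2c-/-) and 5.76 and 5.04 (ctrl). The Tfap2c-/- PGCLCs thus lay near the ESC level and the ctrl PGCLCs below it. The difference between ctrl PGCLCs and ctrl ESCs did not pass (-1.25, adjusted p = 0.0553 by limma). The probe set carries the suffix _x_at, which marks probes that may cross-hybridise. A second Sema4a probe set without that suffix read 4.41 and 4.88 in Tfap2c-/- PGCLCs, against 2.64 and 2.87 in ctrl PGCLCs, a difference of 1.88. Both probe sets separated the genotypes in the same direction. With all probe sets fitted, the representative one did not pass and the second did (adjusted p = 0.0502 and 0.0183 by limma). The Sema4a call was also lost with only the arrays compared.

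Ntn1, the secreted ligand netrin 1, read 7.62 and 7.46 in Tfap2c-/- PGCLCs, against 6.56 and 6.61 in ctrl PGCLCs. It was 1.94-fold higher (0.96 ± 0.17, SE; adjusted p = 0.0314 by limma). A second Ntn1 probe set read only 2.12 to 2.41 in PGCLCs of both genotypes and differed by -0.21. The netrin receptors differed little: Dcc and Unc5a to Unc5d lay between -0.31 and 0.29, and none was called.

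The secreted ligand Slit2 and its receptor Robo1 had differences within the range of size of the genes called. Their standard errors, which pool the spread within all 4 groups, were 0.52 and 0.45. Efna1 had 0.47, and the called genes that rose had 0.17 to 0.32. Slit2 read 4.80 and 3.84 in Tfap2c-/- PGCLCs, against 6.81 and 6.52 in ctrl PGCLCs (-2.35 ± 0.52, SE; 5.09-fold lower; adjusted p = 0.0598 by limma). Robo1 read 7.06 and 7.31 in Tfap2c-/- PGCLCs, against 6.21 and 4.58 in ctrl PGCLCs (1.79 ± 0.45, SE; 3.46-fold higher; adjusted p = 0.085 by limma). The groups did not overlap for either gene, and neither passed the adjusted threshold.

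Both genes had 2 further probe sets that never read above the array's median. On those, Slit2 differed by -0.34 and -0.10 and Robo1 by 0.11 and 0.11, so these 2 members were the ones whose probe sets disagreed by more than 1.5. The Robo1 difference depended on the ctrl PGCLC samples: it was 2.60 without sample 1 and 0.98 without sample 2, with a lone ctrl PGCLC sample in each fit. Sample 2, which held the low value of 4.58, had the highest poly-A spike mean (7.25) and Gapdh 3′ to 5′ difference (0.95) of the arrays. The part of this in the Robo1 difference was not tested. Slit2 passed without Tfap2c-/- ESC sample 1 or sample 2 (adjusted p = 0.0314 and 0.0317 by limma), where its difference was still -2.35. In the fit without dim genes, 3 members were called higher (Epha2, Ntn1, Sema4a), and Slit2 was the 1 called lower. By the fold rule of the study's methods, a difference of group means above 1.5 with no test, 3 members (Epha2, Sema4a, Robo1) were higher and 2 (Efna1, Slit2) lower, against 1.06% and 0.89% of all genes.

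All 4 calls were lost when any 1 of the 4 PGCLC samples was left out, with differences of the same sign and similar size. Without 1 sample, the difference ranged between 1.46 and 1.61 for Epha2 (adjusted p 0.063 to 0.113), 1.43 and 1.86 for Sema4a (0.0778 to 0.268), 0.88 and 1.04 for Ntn1 (0.0528 to 0.181) and -2.83 and -1.88 for Efna1 (0.069 to 0.243), all by limma. Ntn1 was also lost without ctrl ESC sample 1 or sample 2.

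**Figure D2:**
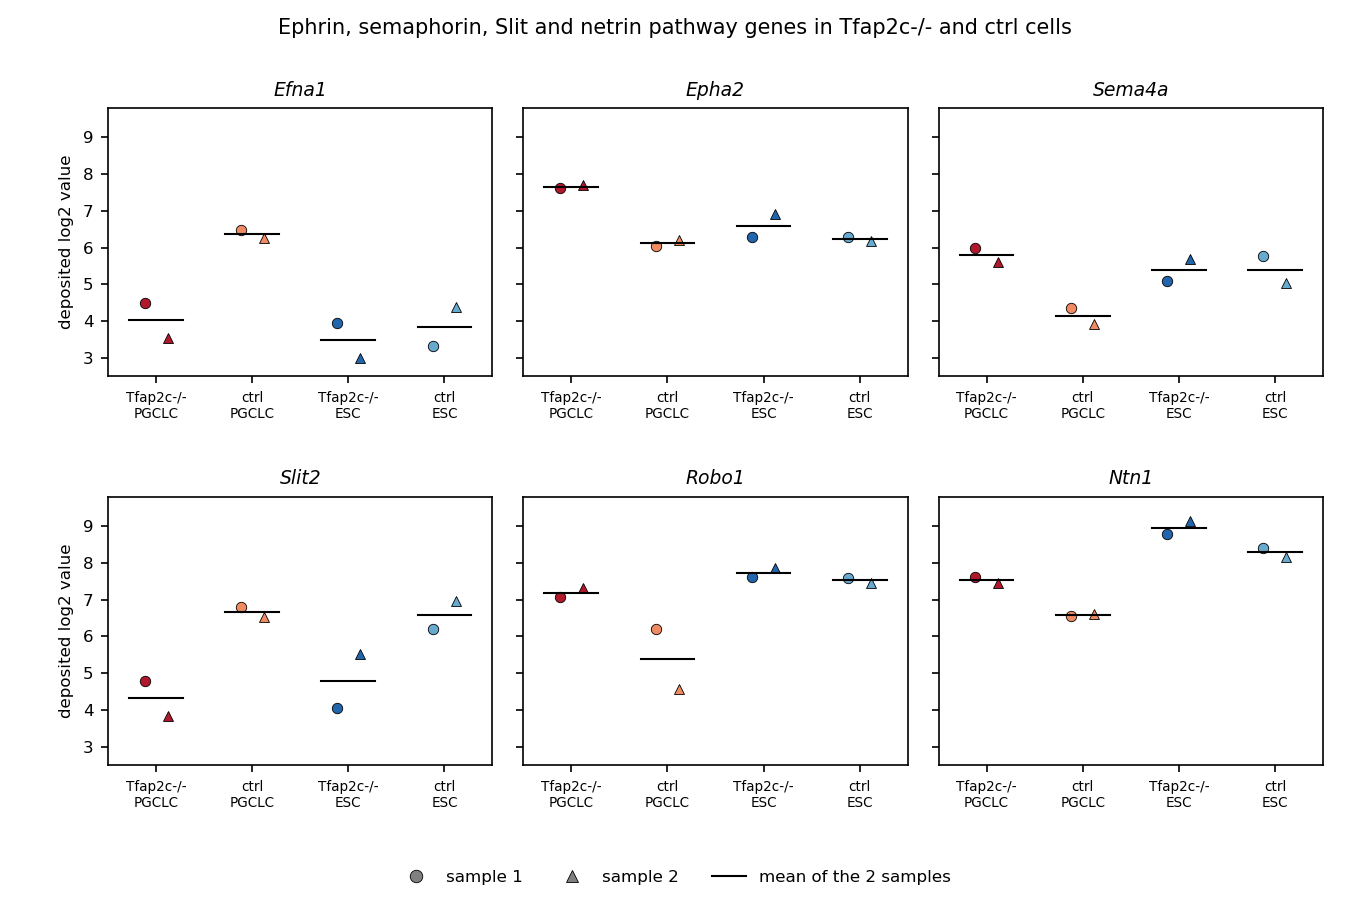
Deposited log2 values (vertical axis) of Efna1, Epha2, Sema4a, Slit2, Robo1 and Ntn1 in the 4 groups, 1 point per sample with the shape giving the sample number and a bar at the mean of the 2 samples. Both Tfap2c-/- PGCLC samples lie outside the ctrl PGCLC pair for all 6 genes, and Robo1 spans 6.21 to 4.58 in ctrl PGCLCs. The 6 genes were shown because they were called or passed the fold rule between these groups, so the separation is no further support.

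Of 10 neural marker genes, 2 rose in Tfap2c-/- PGCLCs beside these members, Stmn2 by 3.87 and Nefl by 3.57 (adjusted p = 0.00148 and 0.00663 by limma). The other 8 were not called, with differences of -0.43 (Sox1), -0.10 (Nes), -0.02 (Neurog2) and 0.07 to 0.67 for the remaining 5. The mean of the 10 was 4.77 and 4.85 in Tfap2c-/- PGCLCs, against 4.06 and 3.85 in ctrl PGCLCs and 4.84 to 4.96 in ESCs. Stmn2 read 9.22 and 9.15 in Tfap2c-/- PGCLCs, against 5.84 and 4.80 in ctrl PGCLCs, and 10.49 to 10.65 in ESCs. The neural transcription factor genes Neurog1 and Neurog2 stayed between 2.94 and 3.54 in all PGCLCs, and 2 of the 10 markers never read above the array's median. Of the germ cell genes, Dppa3 and Kit fell in Tfap2c-/- PGCLCs. The part of either marker group in the members' differences was not tested.

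The same members were then read in ESCs. No member was called between Tfap2c-/- and ctrl ESCs by limma, and 0% of all genes were. At an unadjusted p under 0.05 there were 3 of 69 members (Ntn1, Sema3c and Slit2), against 2.5% of all genes (455 genes). The members' median difference was 0.06 and 66 of 69 lay within 0.5 either way. The fold rule took no member higher (0.011% of all genes) and Slit2 alone lower (0.121% of all genes).

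Slit2 read 4.05 and 5.53 in Tfap2c-/- ESCs, against 6.21 and 6.96 in ctrl ESCs. The groups did not overlap, but the knockout samples lay far apart and the difference of -1.79 ± 0.52 (SE; limma, unadjusted p = 0.00934, adjusted p = 1) was -2.53 without Tfap2c-/- ESC sample 2 and -1.05 without sample 1. Ntn1 read 8.78 and 9.15 in Tfap2c-/- ESCs, against 8.42 and 8.16 in ctrl ESCs, a difference of 0.68 ± 0.17 (SE; unadjusted p = 0.00494, adjusted p = 1 by limma). On their representative probe sets Slit2 and Ntn1 thus differed in the same direction in both cell types, without passing the test in ESCs. The second Ntn1 probe set, a dim one, went the other way in both (-0.21 in PGCLCs and -0.32 in ESCs). Epha2 had 6.28 and 6.91 in Tfap2c-/- ESCs, against 6.30 and 6.17 in ctrl ESCs, so that these groups overlapped. The receptor Epha4 showed the largest positive value, 0.83, which rested on a single ctrl ESC sample: 6.75 and 7.31 in Tfap2c-/- ESCs, against 7.42 and 4.98 in ctrl ESCs.

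Whether the effect of the knockout differed between the cell types was tested as an interaction. No member passed (0.148% of all genes did, 27 genes), and 6 of 69 had an unadjusted p under 0.05, against 9.01% of all genes. The difference in PGCLCs minus that in ESCs was 1.17 ± 0.31 for Epha2 (adjusted p = 0.296), 1.65 ± 0.46 for Sema4a (0.314), 1.58 ± 0.63 for Robo1 (0.513) and -1.97 ± 0.66 for Efna1 (0.431; SE, limma). Ntn1 and Slit2 had 0.28 ± 0.25 and -0.56 ± 0.73. By size alone, 3 members (Efna1, Sema4a, Robo1) lay beyond 1.5, against 1.71% of all genes. The arrays therefore did not establish for any member that the genotypes differed more in one cell type than in the other. The Robo1 value was 2.39 without ctrl PGCLC sample 1 and 0.76 without sample 2, the array with the outlying spike and Gapdh readings.

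**Figure D3:**
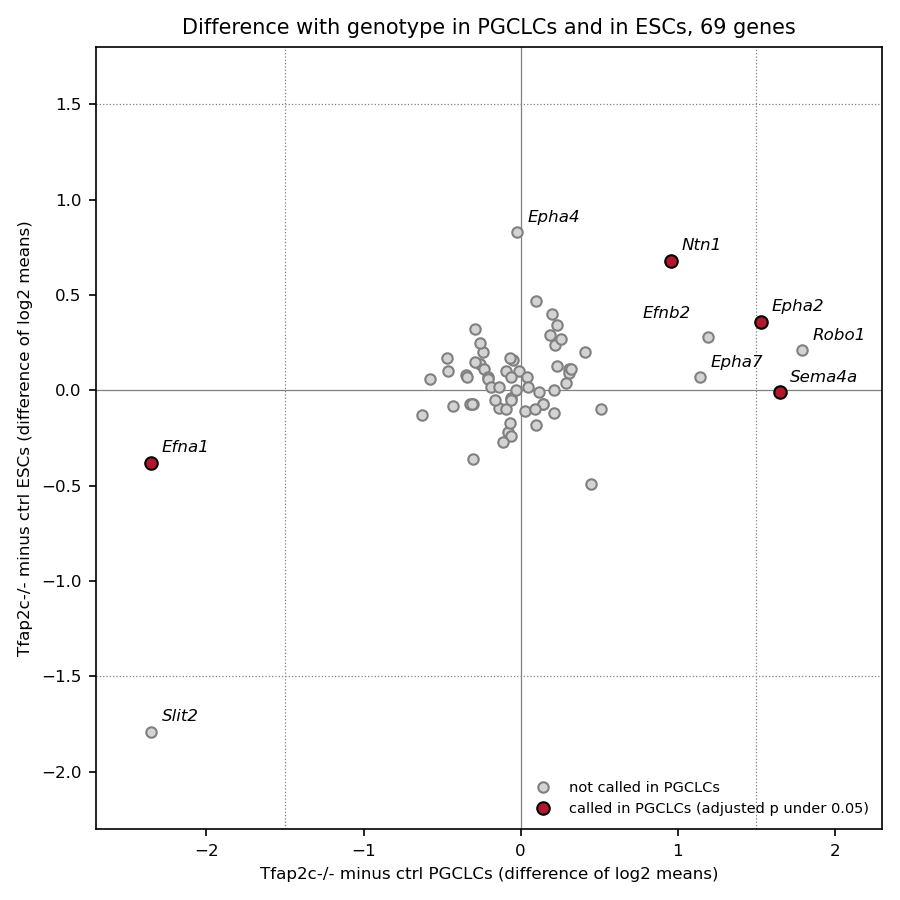
Difference between Tfap2c-/- and ctrl PGCLCs (horizontal axis) and between Tfap2c-/- and ctrl ESCs (vertical axis) for 69 genes, each a difference of log2 group means, with dotted lines at 1.5. The 4 filled points (Efna1, Epha2, Ntn1, Sema4a) were called in PGCLCs, and Slit2 lies at -2.35 and -1.79.

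The protein absent from the knockout, TFAP2C, is a transcription factor of the AP-2 family, which binds a palindrome around GCC and GGC. The promoters of the members above were therefore read for the letters GCCNNNGGC, identical on both strands, in a window of 250 bases before and 50 after each start (RefSeq, GRCm38.p6). Of 58 members with a promoter in the table, 15 held the letters (25.9%), against 18.5% of 27025 genes in all. Slit2 held them at its single start and Sema4a at only the first of its 4 starts. Efna1, Epha2 and Robo1 did not hold them, and Ntn1 had no promoter in the table. A window each is shown for 4 genes, 5′ to 3′, with the match in capitals, to set a pair with the letters beside a pair without. The Slit2 window is chr5:47982905-47983204 on the plus strand, the first of 4 Sema4a starts is chr3:88461133-88461432 on the minus strand, the first of 2 Efna1 starts is chr3:89280902-89281201 on the minus strand and the Epha2 window is chr4:141300971-141301270 on the plus strand.
Slit2: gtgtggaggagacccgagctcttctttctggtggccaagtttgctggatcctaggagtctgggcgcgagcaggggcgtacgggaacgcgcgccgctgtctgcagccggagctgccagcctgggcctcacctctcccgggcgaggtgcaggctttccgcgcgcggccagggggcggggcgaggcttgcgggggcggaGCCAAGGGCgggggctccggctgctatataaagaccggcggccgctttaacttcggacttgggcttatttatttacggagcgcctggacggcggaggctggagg
Sema4a: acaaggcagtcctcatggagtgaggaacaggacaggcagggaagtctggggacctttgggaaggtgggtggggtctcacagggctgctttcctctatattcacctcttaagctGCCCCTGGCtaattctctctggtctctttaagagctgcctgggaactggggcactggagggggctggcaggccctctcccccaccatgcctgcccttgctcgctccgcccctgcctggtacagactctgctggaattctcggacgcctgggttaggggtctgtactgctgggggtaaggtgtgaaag
Efna1: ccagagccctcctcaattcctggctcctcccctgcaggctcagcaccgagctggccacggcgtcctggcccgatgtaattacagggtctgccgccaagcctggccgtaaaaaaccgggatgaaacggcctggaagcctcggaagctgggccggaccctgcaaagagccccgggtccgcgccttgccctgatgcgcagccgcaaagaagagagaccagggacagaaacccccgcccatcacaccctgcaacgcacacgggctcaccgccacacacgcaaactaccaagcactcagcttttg
Epha2: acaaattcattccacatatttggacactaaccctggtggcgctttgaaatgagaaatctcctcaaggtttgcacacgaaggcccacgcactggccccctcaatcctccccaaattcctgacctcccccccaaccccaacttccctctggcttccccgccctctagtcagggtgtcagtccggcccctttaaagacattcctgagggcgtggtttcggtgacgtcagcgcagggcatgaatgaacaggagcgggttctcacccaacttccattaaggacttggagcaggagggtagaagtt
In Slit2 the match GCCAAGGGC begins at position -54 from the start, and in Sema4a the match GCCCCTGGC begins at position -137. In Tfap2c-/- PGCLCs the Slit2 values were lower and the Sema4a values higher. Of the pair without a match, Efna1 was lower and Epha2 higher. These genes were picked for display, and direction was not tested against the match. A match is a run of letters and was not tested as a binding site.

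The third question was how the guidance genes differed between PGCLCs and ESCs within a genotype. These comparisons use the same arrays as those above, so their values are given side by side. In Tfap2c-/- cells 2 members rose in PGCLCs (Efnb2, Sema3e) and 1 fell (Ntn1), against 1.35% and 0.973% of all genes (limma). In ctrl cells 4 members rose (Efna1, Efnb2, Sema4c, Sema3e) and 4 fell (Robo1, Ntn1, Epha7, Sema5b), against 4.64% and 3.72%. The members' median difference was 0.01 in Tfap2c-/- cells (all genes -0.06) and 0.04 in ctrl cells (all genes -0.03). At an unadjusted p under 0.05 there were 14 of 69 in Tfap2c-/- cells, against 18.5% of all genes, and 16 of 69 in ctrl cells, against 23.4%. The fold rule took 2 of 69 in Tfap2c-/- cells, against 2.18% of all genes, and 6 of 69 in ctrl cells, against 3.49%.

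Ephrin-B2, encoded by Efnb2, is a transmembrane ligand that marks arterial endothelium and takes part in cell sorting. Efnb2 read 7.74 and 7.10 in Tfap2c-/- PGCLCs, against 4.42 and 4.61 in Tfap2c-/- ESCs, and 6.92 and 5.55 in ctrl PGCLCs, against 4.14 and 4.33 in ctrl ESCs. All 4 PGCLC samples lay above all 4 ESC samples. The difference was 2.91 ± 0.42 in Tfap2c-/- cells (adjusted p = 0.019) and 2.00 ± 0.42 in ctrl cells (adjusted p = 0.0297, SE, limma). A second probe set gave 2.46 and 1.91, while 2 dim ones gave 0.21 and 0.15 in Tfap2c-/- cells and -0.28 and -0.13 in ctrl cells. The related Efnb1 was not called on the probe set read here (0.07 in Tfap2c-/- cells and 0.51 in ctrl cells), but another of its probe sets read 5.73 and 4.70 in Tfap2c-/- PGCLCs, against 3.85 and 3.23 in Tfap2c-/- ESCs, and 5.27 and 5.12 in ctrl PGCLCs, against 3.54 and 3.08 in ctrl ESCs. With all probe sets fitted, that one passed in ctrl cells (1.89 ± 0.37, SE; adjusted p = 0.0252 by limma).

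Efna1 read 4.50 and 3.55 in Tfap2c-/- PGCLCs, against 3.95 and 3.0 in Tfap2c-/- ESCs, and the samples overlapped (0.55 ± 0.47, adjusted p = 0.564 by limma). In ctrl cells it read 6.48 and 6.27 in PGCLCs, against 3.31 and 4.39 in ESCs (2.52 ± 0.47, SE; adjusted p = 0.02 by limma), the largest rise among the members there. For the A-type ligand Efna3 the representative probe set gave -0.99 in Tfap2c-/- cells (adjusted p = 0.0664) and -0.88 in ctrl cells (adjusted p = 0.0513, limma), so neither passed. Its other probe set gave -1.0 in Tfap2c-/- cells and -1.45 in ctrl cells, and passed in ctrl cells when all probe sets were fitted (adjusted p = 0.0102 by limma).

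Sema3e, a secreted semaphorin that binds Plxnd1 without a neuropilin, read 5.65 and 5.79 in Tfap2c-/- PGCLCs, against 3.91 and 4.25 in Tfap2c-/- ESCs. In ctrl cells it read 5.51 and 5.12 in PGCLCs, against 3.84 and 3.92 in ESCs. It rose by 1.65 ± 0.21 in Tfap2c-/- cells (adjusted p = 0.0145) and by 1.43 ± 0.21 in ctrl cells (adjusted p = 0.00847; SE, limma), with every PGCLC sample above every ESC sample. Its receptor gene Plxnd1 read 3.64 to 4.26 in PGCLCs and 3.40 to 3.64 in ESCs and was not called. Sema4c, a transmembrane semaphorin that binds Plxnb2, read 5.82 and 4.53 in Tfap2c-/- PGCLCs, against 4.12 and 3.74 in Tfap2c-/- ESCs (1.24 ± 0.38, adjusted p = 0.151 by limma). It read 5.62 and 5.40 in ctrl PGCLCs, against 3.89 and 3.83 in ctrl ESCs (1.65 ± 0.38, adjusted p = 0.04 by limma). Plxnb2 itself differed by 0.40 and 0.37 in the 2 genotypes, and was not called in either.

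Ntn1 was the member with the smallest adjusted p of the cell type comparisons. It read 7.62 and 7.46 in Tfap2c-/- PGCLCs, against 8.78 and 9.15 in Tfap2c-/- ESCs (-1.43 ± 0.17, adjusted p = 0.013), and 6.56 and 6.61 in ctrl PGCLCs, against 8.42 and 8.16 in ctrl ESCs (-1.70 ± 0.17, adjusted p = 0.00266; SE, limma). All 4 PGCLC samples lay below all 4 ESC samples. In ctrl cells this call held in each of 8 fits that left out 1 sample and in each of 9 other settings, with an adjusted p of at most 0.0465. In Tfap2c-/- cells it was lost without Tfap2c-/- PGCLC sample 1 or sample 2 (adjusted p 0.0645 and 0.065).

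Robo1 read 7.06 and 7.31 in Tfap2c-/- PGCLCs, against 7.62 and 7.85 in Tfap2c-/- ESCs (-0.55 ± 0.45, adjusted p = 0.541 by limma). It fell in ctrl PGCLCs, with 6.21 and 4.58 against 7.59 and 7.46 in ctrl ESCs (-2.13 ± 0.45, SE; adjusted p = 0.0298 by limma). The ctrl difference was carried by 1 of 3 probe sets. Its ligand gene Slit2 did not follow: it differed by -0.48 in Tfap2c-/- cells and by 0.08 in ctrl cells. Epha7, a receptor of A-type ephrins, read 4.43 and 4.75 in Tfap2c-/- PGCLCs, against 4.90 and 5.39 in Tfap2c-/- ESCs (-0.55 ± 0.39, not called). In ctrl cells Epha7 read 3.73 and 3.17 in PGCLCs, against 4.52 and 5.64 in ESCs (-1.63 ± 0.39, SE; adjusted p = 0.0431 by limma). Sema5b, a transmembrane semaphorin with thrombospondin repeats, read 3.79 and 3.98 in Tfap2c-/- PGCLCs, against 4.62 and 4.62 in Tfap2c-/- ESCs, and 3.78 and 3.35 in ctrl PGCLCs, against 4.42 and 4.60 in ctrl ESCs. It was not called in Tfap2c-/- cells (-0.74 ± 0.20, SE; adjusted p = 0.114) and was in ctrl cells (-0.95 ± 0.20, adjusted p = 0.0303; limma).

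The calls of this comparison other than that of Ntn1 in ctrl cells were each lost when some single sample was left out. In ctrl cells the ranges of the difference over the fits that lost the call were 1.98 to 2.62 for Efna1 (without ctrl PGCLC sample 1 or 2, or ctrl ESC sample 1), 1.32 to 2.10 for Efnb2 (ctrl PGCLC sample 1, ctrl ESC sample 1 or 2) and 1.39 for Sema3e (ctrl ESC sample 1). They were -2.20 to -2.07 for Robo1 (either Tfap2c-/- PGCLC or either ctrl ESC sample), 1.54 to 1.76 for Sema4c (any sample but the Tfap2c-/- PGCLCs), -1.91 to -1.07 for Epha7 (any sample but ctrl ESC sample 1) and -1.03 to -0.73 for Sema5b (Tfap2c-/- PGCLC sample 1 or 2, ctrl PGCLC sample 2, ctrl ESC sample 1 or 2). In Tfap2c-/- cells the ranges were 2.59 to 3.23 for Efnb2 (any of the 4 samples compared) and 1.47 to 1.71 for Sema3e (Tfap2c-/- PGCLC sample 1 or 2, Tfap2c-/- ESC sample 1). No sign turned.

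**Figure D4:**
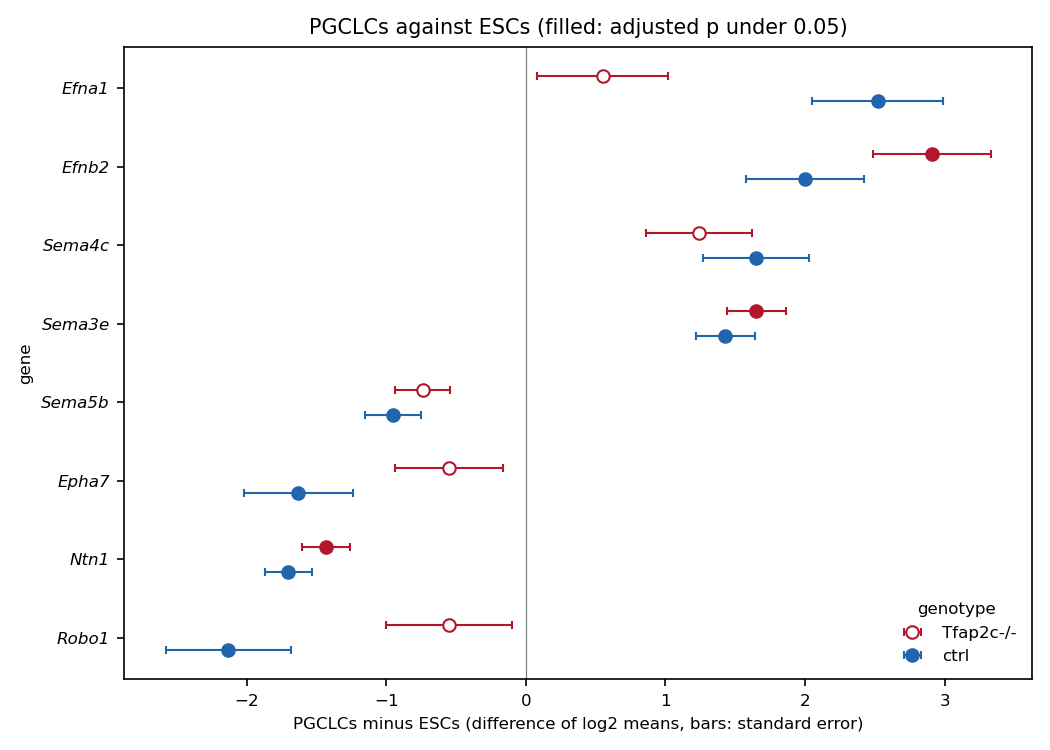
Difference between PGCLCs and ESCs (horizontal axis, log2 group means, with the standard error as a bar) for the 8 genes called in either genotype (vertical axis), Tfap2c-/- above ctrl, filled where the adjusted p was under 0.05. Efnb2, Sema3e and Ntn1 are filled in both genotypes, and Efna1 stands at 0.55 in Tfap2c-/- cells and 2.52 in ctrl cells.

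Several members that read above the median on all arrays were called in no comparison. The receptor Ephb3 read 7.34 and 7.36 in Tfap2c-/- PGCLCs, 7.60 and 7.52 in ctrl PGCLCs and 7.23 to 7.58 in ESCs, with a genotype difference in PGCLCs of -0.21 (95% interval -0.58 to 0.16). The other ephrin-B receptor above the median on all arrays, Ephb4, spanned 4.93 to 5.53. Of the plexins, which transduce semaphorin signals, none of 9 was called in any comparison, and Plxna1 and Plxnb2 spanned 5.69 to 6.61 and 6.15 to 6.76 over the 8 arrays. The ephrin-A ligands Efna2 and Efna4 spanned 5.27 to 5.70 and 5.55 to 6.45. Slit1 lay between 4.26 and 4.90. Sema4b, a transmembrane semaphorin, read 7.23 and 7.50 in Tfap2c-/- PGCLCs, against 7.69 and 7.91 in ctrl PGCLCs (-0.43, adjusted p = 0.283 by limma). Robo4, the endothelial Robo, read 4.61 and 4.53 in Tfap2c-/- PGCLCs, against 4.20 and 3.92 in ctrl PGCLCs (0.51, adjusted p = 0.208 by limma).

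Between ctrl PGCLCs and ctrl ESCs, probe sets of a gene disagreed by more than 1.5 for Efnb2, Epha7, Nrp1, Robo1 and Sema4f. For Nrp1 and Sema4f it was the representative probe set that gave the smallest difference. Nrp1 encodes a neuropilin, the co-receptor of secreted semaphorins. On its representative probe set it read 4.20 and 4.17 in Tfap2c-/- PGCLCs, 4.07 and 4.03 in ctrl PGCLCs and 3.78 to 4.13 in ESCs. On the second of its 4 probe sets it read 6.24 and 4.15 in Tfap2c-/- PGCLCs, against 2.00 and 2.21 in Tfap2c-/- ESCs, and 5.98 and 4.01 in ctrl PGCLCs, against 2.04 and 2.42 in ctrl ESCs. The difference between PGCLCs and ESCs on that probe set was 3.09 ± 0.75 in Tfap2c-/- cells and 2.77 ± 0.75 in ctrl cells, and neither passed (adjusted p = 0.0947 and 0.0725 by limma over 34945 probe sets). For Sema4f, a probe set other than the representative one read 2.79 and 2.82 in Tfap2c-/- PGCLCs, against 5.05 and 5.01 in Tfap2c-/- ESCs, and 3.37 and 3.16 in ctrl PGCLCs, against 5.07 and 5.62 in ctrl ESCs. It fell by 2.22 in Tfap2c-/- cells (adjusted p = 0.00814) and by 2.08 in ctrl cells (adjusted p = 0.00355; limma over all probe sets), while the representative one differed by -0.30 and -0.14. That probe set has the suffix _x_at.

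PGCLC sample 1 and sample 2 differed in the same direction in both genotypes for some members. Of 69 members, 5 (7.25%) were higher by more than 0.5 in sample 1 of both genotypes and 0 were lower. Over all genes 3.3% were higher and 0.456% lower. The 5 were Efnb2, Sema3d, Sema5a, Sema6d and Unc5b. Unc5b, a repulsive netrin receptor, read 7.34 and 6.22 in Tfap2c-/- PGCLCs, 6.85 and 6.13 in ctrl PGCLCs and 5.45 to 5.72 in ESCs. Unc5c read 5.52 and 5.11 in Tfap2c-/- PGCLCs, 5.99 and 4.76 in ctrl PGCLCs and 4.18 to 4.37 in ESCs. The neuropilin gene Nrp2 read 6.85 and 6.43 in Tfap2c-/- PGCLCs, 6.98 and 5.38 in ctrl PGCLCs and 6.37 to 7.18 in ESCs. For Unc5b, Unc5c and Nrp2 the lower ctrl PGCLC value was that of sample 2. That array had the highest poly-A spike mean (7.25) and Gapdh 3′ to 5′ difference (0.95). The part of this in the gaps was not tested.

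Of 6 fibroblast markers, the collagen genes Col1a1, Col1a2 and Col3a1 were also higher in PGCLC sample 1 of both genotypes, as was Thy1, with 2.67 and 2.41 in Tfap2c-/- PGCLCs and 2.61 and 2.35 in ctrl PGCLCs. Postn was lower in sample 1, with 2.27 and 2.38 in Tfap2c-/- PGCLCs and 2.69 and 3.28 in ctrl PGCLCs, and Lum went opposite ways in the 2 genotypes. Col1a1 read 5.27 and 4.30 in Tfap2c-/- PGCLCs, 5.06 and 3.13 in ctrl PGCLCs and 2.83 to 3.13 in ESCs. The mean of the 6 markers was 3.60 and 2.96 in Tfap2c-/- PGCLCs, 3.42 and 2.79 in ctrl PGCLCs and 2.58 to 2.69 in ESCs, and 4 of the 6 never read above the array's median. Their part in the members' values was not tested. Without both PGCLC samples numbered 1, a setting chosen after seeing the data, each PGCLC group was 1 array, so that the spread came from the ESC samples alone and the lone arrays were assumed to vary like them. Robo1 read 7.31 in the remaining Tfap2c-/- PGCLC sample, against 4.58 in the remaining ctrl PGCLC sample. The latter was the array with the highest poly-A spike mean (7.25) and Gapdh 3′ to 5′ difference (0.95). On that assumption the Robo1 difference was 2.73, with no replicate of either PGCLC value behind it. On the same assumption Ntn1 and Robo1 were called between ctrl PGCLCs and ctrl ESCs, and no member between Tfap2c-/- PGCLCs and Tfap2c-/- ESCs.

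**Figure D5:**
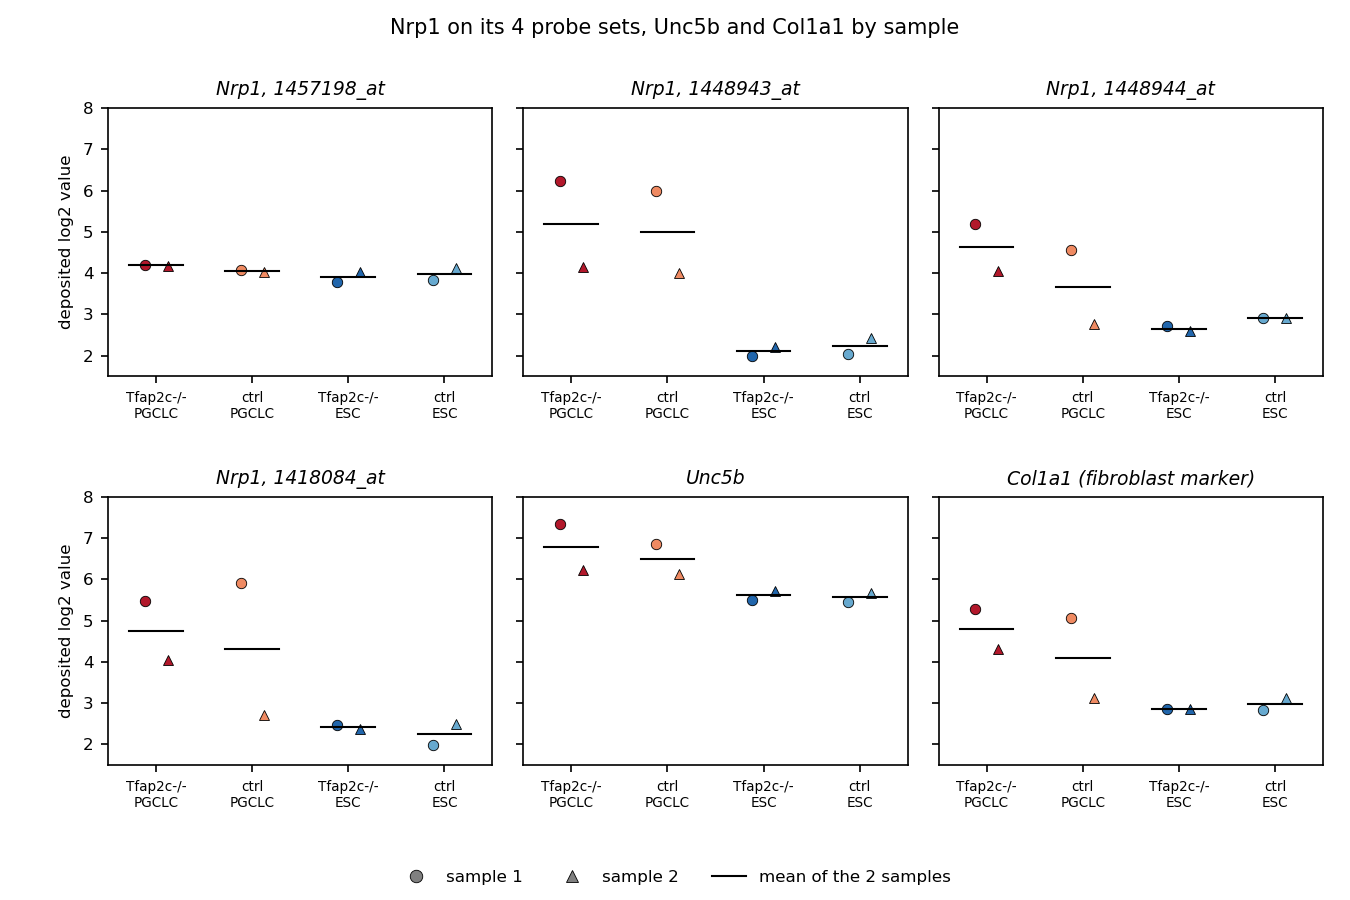
Deposited log2 values (vertical axis) of Nrp1 on each of its 4 probe sets, of Unc5b and of the fibroblast marker Col1a1 in the 4 groups, with the point's shape giving the sample number and a bar at the mean of the 2 samples. Sample 1 lies above sample 2 in both PGCLC groups in all panels, by only 0.03 in each on the first probe set, where the PGCLC values span 4.03 to 4.20.

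Genes that act with these ligands and receptors were counted from a list of 64 co-receptors, modulators and intracellular transducers, of which 60 were measured. Between Tfap2c-/- and ctrl PGCLCs 3 rose and 1 fell, against 1.29% and 1.8% of all genes (limma), and 20 had an unadjusted p under 0.05, against 15.7% of all genes. Tiam1, an exchange factor for Rac, rose by 1.78 ± 0.33, Srgap2, a Slit-Robo GTPase-activating protein, by 1.73 ± 0.29 and Enah, an actin regulator, by 1.06 ± 0.15. Cxcr4, the chemokine receptor that guides migrating germ cells, read 2.51 and 2.24 in Tfap2c-/- PGCLCs, against 4.36 and 4.28 in ctrl PGCLCs, and 2.56 to 2.92 in ESCs. It fell by 1.94 ± 0.15 on the log2 scale (SE; adjusted p = 0.0017 by limma) and was the 1 gene of the list whose interaction passed (-1.70 ± 0.22, adjusted p = 0.047).

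Between Tfap2c-/- and ctrl ESCs none of the 60 was called by limma and 0 had an unadjusted p under 0.05. The differences farthest from 0 were those of Ablim1 (0.76) and Dpysl3 (0.70). Between PGCLCs and ESCs, 3 rose and 1 fell in Tfap2c-/- cells, against 1.35% and 0.973% of all genes, namely Trio (1.76), Srgap3 (1.73), Limk2 (1.07) and Dpysl5 (-0.74). In ctrl cells 5 rose and 1 fell, against 4.64% and 3.72% of all genes (limma). The actin regulator Ablim1 read 5.19 and 4.26 in ctrl PGCLCs, against 7.54 and 6.54 in ctrl ESCs, a difference of -2.32 ± 0.41 (SE; adjusted p = 0.0168 by limma). Cxcr4 (1.43), Srgap3 (1.41) and Nck2 (1.11) were among the genes of the list that rose in ctrl PGCLCs.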

How the data were processed

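RNA from 8 samples, 2 per group, was measured on Affymetrix whole-genome mouse arrays. The authors deposited 1 table of normalised log2 values, from 1.10 to 13.64, with array medians of 3.47 to 3.55. GCRMA (no version) stands in the submitters' processing notes but RMA in the methods of the study, so the background step behind the log2 values is not settled. Depth does not apply, and the number of arrays limits the precision. Of 45101 probe sets, 64 were controls, 932 named several genes and 9160 were not listed in the platform annotation. The other 34945 named 18193 genes, each read on its probe set with the highest mean.

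Group means were fitted with limma 3.58.1 in R 4.3.3 (lmFit, eBayes with the variance prior following mean level; 4 residual degrees of freedom), with 4 groups, 5 comparisons, two-sided p-values and Benjamini-Hochberg adjustment over all genes. The script was tested on simulated data. A gene was called at an adjusted p under 0.05. The fold rule was a difference of group means above 1.5.

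Genes were named with values where they passed either rule in any comparison, were among the 2 of their family with the highest mean, had probe sets that disagreed by more than 1.5 between genotypes in PGCLCs, or are named for the arrays in the study. Efna3, Plxnd1, Sema4f, Sema3c, Sema3d, Sema5a, Sema6d and the dim receptors fell outside it and were picked with their values in view. Of the guidance signalling list, up to 4 called genes per comparison were named, or the 2 with the largest difference. The members and lists were chosen with earlier results of these data known. Alternatives were another probe set or the mean of all probe sets, no dim genes, arrays shifted to 1 median, no trend, a replicate block, only the arrays compared, and each array left out.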

Additional observations from a re-analysis of the deposited data

Results flagged for a closer look

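On its representative probe set, Sema3f, a secreted semaphorin, differed in opposite directions between genotypes in the 2 cell types, every sample of each. It read 7.24 and 7.08 in Tfap2c-/- PGCLCs, against 7.39 and 7.46 in ctrl PGCLCs (-0.26), and 7.61 and 7.60 in Tfap2c-/- ESCs, against 7.40 and 7.31 in ctrl ESCs (0.25). The difference between them was -0.51 (limma interaction, unadjusted p = 0.0332, adjusted p = 0.499) and did not pass. The probe set has the suffix _x_at, and the other 2 Sema3f probe sets read 3.52 to 3.91 and 2.48 to 2.97 on all arrays and did not show opposite directions of that size: 1 differed by 0.00 in PGCLCs and -0.01 in ESCs and the other by -0.27 and -0.06.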

How the results depend on the processing

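With 2 arrays a group, no called difference of a member turned its sign in any setting, while most calls were lost in some fit with a sample left out. Between Tfap2c-/- and ctrl PGCLCs the count of 4 called members was 2 with all probe sets fitted, 1 with only the arrays compared, 1 without both PGCLC samples numbered 1, and 0 to 5 with 1 array left out. Between ctrl PGCLCs and ctrl ESCs the count of 8 was 5 without dim genes, 5 with only the arrays compared, 2 without the PGCLC samples numbered 1, and 2 to 7 with 1 array left out. Between Tfap2c-/- PGCLCs and Tfap2c-/- ESCs the count of 3 was 1 with only the arrays compared, 0 without the PGCLC samples numbered 1, and 0 to 3 with 1 array left out. The interaction count of 0 was 0 to 1, and the ESC count stayed at 0. The cause was not tested, beyond fewer arrays or genes in the fit.

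By the fold rule, averaging all probe sets of each gene gave 3 members for 5 (PGCLC genotypes), 0 for 1 (ESC genotypes), 2 for 6 (ctrl PGCLCs against ctrl ESCs) and 1 for 2 (Tfap2c-/- PGCLCs against Tfap2c-/- ESCs). Leaving out dim genes gave 3 for 6 in ctrl cells, and taking any probe set gave 5 for 2 in Tfap2c-/- cells. The interaction had 3 members past the rule, and 5 without the PGCLC samples numbered 1. With 1 array left out the counts ranged over 3 to 5, 0 to 2, 6 to 8, 2 to 4 and 0 to 5 in the same order. Averaging probe sets also ended the Ntn1 call between genotypes (0.37, adjusted p = 0.298). Epha2 has no value without probe sets liable to cross-hybridise. Every probe set read on its own, chosen after seeing the data, called 3, 0, 14 and 6 of the members' 154 probe sets (3, 0, 11 and 4 members) between PGCLC genotypes, ESC genotypes, ctrl and Tfap2c-/- cell types, against 2.01%, 0%, 6.65% and 1.64% of all probe sets.

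Same-numbered samples deviated together in PGCLCs (correlation 0.39 between genotypes) but not in ESCs (-0.33), with -0.33 to 0.39 over the 6 pairs of groups. The labels do not say what a number marks, so samples were not paired. Whether the PGCLC numbers mark an ESC line, a shared culture or a day cannot be told. With the number as a replicate block the counts were 4, 0, 8, 3 and 0 for the interaction, as without it.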
